A study of Bos taurus with 30 samples.

Results

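Transcript levels in the cervix of heifers in oestrus were compared with levels in heifers killed in the hours after removal of a progesterone device. The comparison took 20 of the 30 heifers of the series by their stage label, 1 library per heifer. The oestrus pool held 8 heifers, 4 at onset of oestrus (Oestrus) and 4 killed 12 h after onset (Oestrus+12h). The CIDR pool held 12 heifers, 6 killed 12 h after removal of the controlled internal drug release (CIDR) device (CIDR+12h) and 6 killed 24 h after removal (CIDR+24h). All were Limousin heifers that had carried a vaginal device with 1.94 g progesterone for 8 days with a prostaglandin F2α analogue (0.5 mg) injected 1 day before it came out, so no pool was untreated. The other 10 heifers, 5 killed 48 h after onset (Oestrus+48h) and 5 on day 7 (Luteal), did not enter the test. Grouping followed the sample labels, although the written protocol swaps the numbers of 2 stages, with 5 at Oestrus+12h and 4 at Oestrus+48h. The protocol also says that heifers showing standing oestrus were used, without saying how this applied to heifers killed before oestrus.

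As background, progesterone keeps the cow's cervix closed and its mucus thick. When the device is removed and prostaglandin has ended the corpus luteum, progesterone falls, the growing follicle secretes oestradiol, and standing oestrus follows. Under oestradiol the cervical epithelium secretes abundant clear mucus and the tissue softens, while after ovulation a new corpus luteum restores progesterone. No hormone was measured here. The deposited tables list Ensembl transcript IDs without gene names, and 0 of 28054 IDs were matched in the name table used here, so transcripts are described by their levels and no gene, pathway or cell type is named. For the same reason the tissue label could not be checked against marker genes. RNA came from cervical tissue in bulk, in which fewer cells of a type and less RNA per cell cannot be told apart.

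Library totals ran from 5434853 to 9659743 counts in the oestrus pool and from 6227383 to 19628122 in the CIDR pool. The mean total was 7184250 ± 1359680 (SD, n = 8) against 9397980 ± 3554270 (SD, n = 12), a difference that did not pass (exact permutation p = 0.0821, two-sided, adjusted p = 0.123 over 3 library measures). The 10 most abundant transcripts took 9.98% ± 2.2 (SD, n = 8) of the counts at oestrus and 14.3% ± 4.87 (SD, n = 12) after CIDR removal (exact permutation p = 0.0299, two-sided, adjusted p = 0.0898). Levels are given as CPM, a transcript's share of its library's counts, put on one scale by TMM normalisation, and a transcript was called at an adjusted p under 0.05 in edgeR's quasi-likelihood test.

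Of 16671 transcripts tested, 23 (0.138%) were called. A group of 16 (0.096%) was higher at oestrus by modest amounts, with log2 differences from 0.69 to 2.33 and a median of 0.96. The other 7 (0.042%) were lower at oestrus by large amounts, with log2 differences from -6.25 to -2.05 and a median of -4.53. Over all transcripts tested the median difference was -0.01, and the middle 50% lay between -0.28 and 0.27. The calls sat close to the threshold, since their edgeR adjusted p lay between 0.0458 and 0.0471. A limit of 0.1 would take in 521 transcripts, 357 higher and 164 lower.

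**Figure D1:**
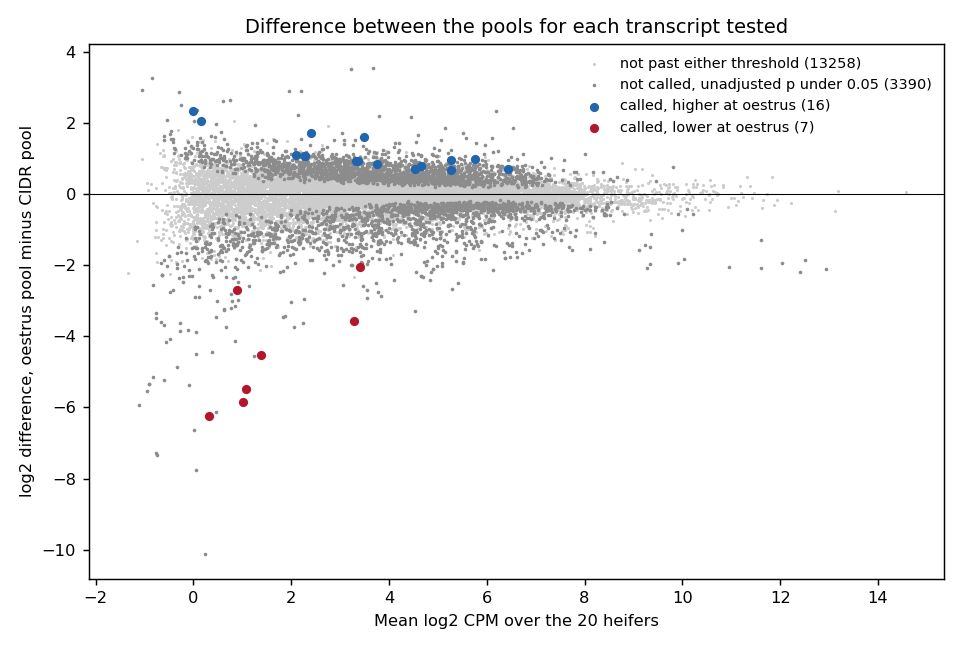
Each point is 1 of 16671 transcripts, with its mean log2 CPM over the 20 heifers on the x axis and its log2 difference (oestrus pool minus CIDR pool) on the y axis. Blue points are the 16 called higher and red points the 7 called lower, and the red points lie at differences of -2.05 and beyond while most blue points lie near 1.

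The transcript higher at oestrus with the smallest p was ENSBTAT00000012423. Its levels in Oestrus replicates 1 to 4 were 97.0, 69.1, 88.2 and 106 CPM, and in Oestrus+12h replicates 1 to 4 they were 85.3, 72.0, 67.5 and 78.4 CPM. At CIDR+12h it ranged from 25.7 to 68.1 CPM with a median of 40.3, and at CIDR+24h from 27.2 to 61.3 CPM with a median of 40.9. The pools met at a single heifer: CIDR+12h replicate 5 had 68.1 CPM, above the lowest oestrus heifer, while the other 11 CIDR heifers lay below all 8 oestrus heifers. The mean was 83.0 ± 13.9 CPM at oestrus (SD, n = 8) against 42.1 ± 12.9 CPM (SD, n = 12). On the log2 scale the fitted pools were 0.98 ± 0.165 apart (SE, edgeR adjusted p = 0.0458).

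The second transcript higher at oestrus, ENSBTAT00000054365, overlapped between the pools at the same heifer. Levels were 6.68, 6.39, 8.93 and 11.1 CPM in Oestrus replicates 1 to 4, and 6.02, 7.09, 5.50 and 7.69 CPM in Oestrus+12h replicates 1 to 4. At CIDR+12h it ranged from 2.29 to 5.52 CPM with a median of 3.40, and at CIDR+24h from 2.21 to 4.45 CPM with a median of 3.46. CIDR+12h replicate 5, at 5.52 CPM, was the only CIDR heifer within the oestrus range, and it stood just above the lowest oestrus heifer. The means of 7.42 ± 1.82 CPM (SD, n = 8) and 3.53 ± 0.991 CPM (SD, n = 12) were 1.06 ± 0.189 apart on the log2 scale (SE, edgeR adjusted p = 0.0458). The log2 CPM of the 2 transcripts correlated at 0.83 over the 20 heifers, a value that includes the pool difference both were chosen for. They were measured in the same heifers and are not separate evidence.

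The transcript lower at oestrus with the smallest p at a mean of at least 5 CPM was ENSBTAT00000008373. It reached that mean through the CIDR pool, at 14.7 CPM against 0.317 CPM in the oestrus pool. The count filter (minimum count 10) also kept it only through CIDR heifers. It was thus chosen partly for being high there. It had 0.297, 0.108, 0.323 and 0.652 CPM in Oestrus replicates 1 to 4 and 0.476, 0.139, 0.403 and 0.137 CPM in Oestrus+12h replicates 1 to 4, which are 1 to 5 counts in each library. Every CIDR+12h heifer was far above this, from 8.62 to 46.2 CPM with a median of 11.2. CIDR+24h was split: replicates 1 and 4 had 29.7 and 42.8 CPM, while the other 4 heifers had between 0 and 0.641 CPM, within or below the range of the oestrus heifers. The log2 difference between pools was -5.48 ± 1.07 (SE, edgeR adjusted p = 0.0471). With limma voom, a second tool, it was smaller and not called, at -3.63 with sample quality weights (adjusted p = 0.166) and -3.75 without (adjusted p = 0.311).

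The second transcript lower at oestrus, ENSBTAT00000026400, differed less and more evenly. Levels were 2.23, 7.47, 12.1 and 4.30 CPM in Oestrus replicates 1 to 4 and 5.23, 2.78, 3.22 and 4.12 CPM in Oestrus+12h replicates 1 to 4. The CIDR+12h heifers ranged from 14.9 to 52.6 CPM with a median of 20.5, and the CIDR+24h heifers from 9.13 to 52.4 CPM with a median of 11.6. Oestrus replicate 3 was the only oestrus heifer inside the CIDR range, and the other 7 lay below all 12 CIDR heifers. Means of 5.18 ± 3.22 CPM (SD, n = 8) and 21.6 ± 15.3 CPM (SD, n = 12) corresponded to -2.05 ± 0.404 on the log2 scale (SE, edgeR adjusted p = 0.0471). Its log2 CPM correlated with that of ENSBTAT00000008373 at 0.76 over the 20 heifers, which again includes the difference between the pools.

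**Figure D2:**
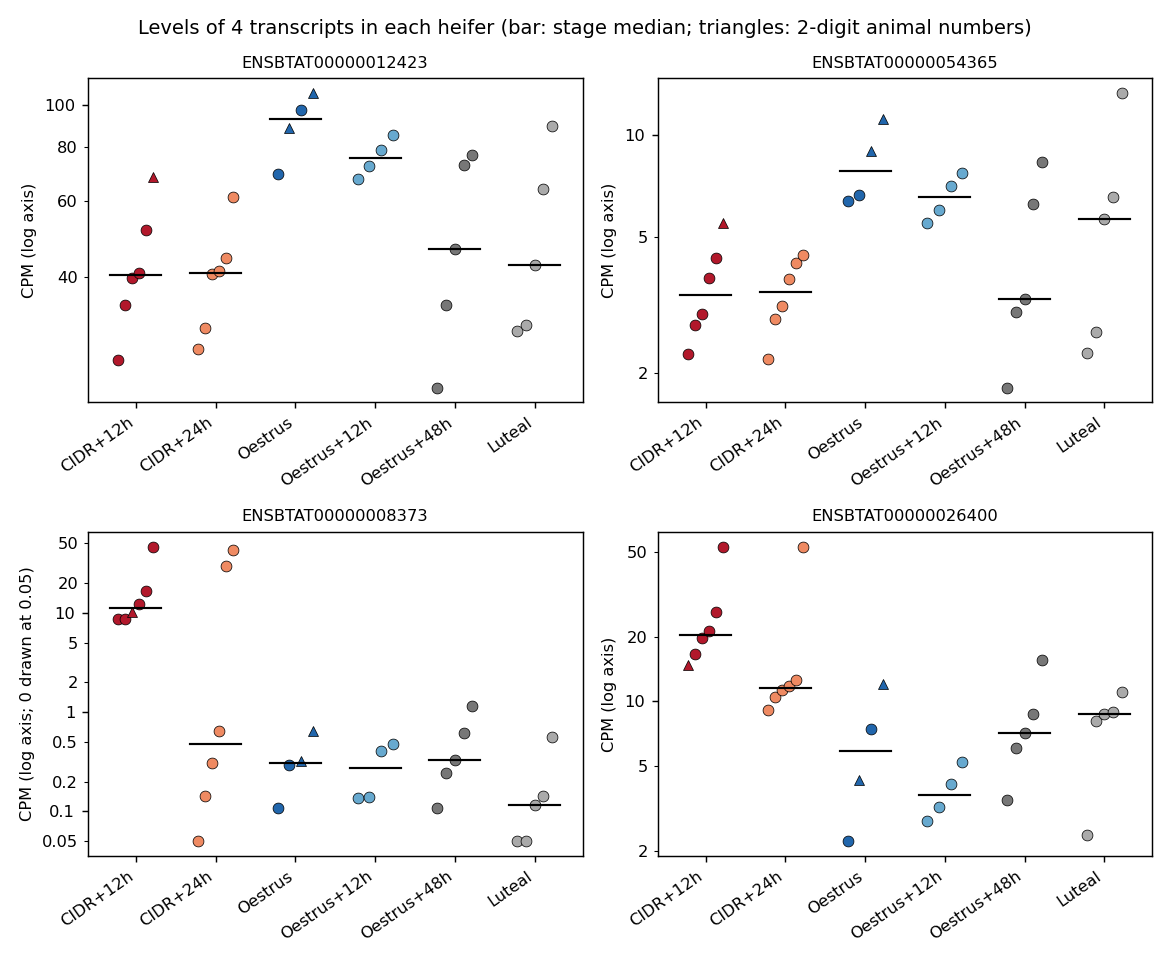
Levels in CPM on a log axis of the 4 named transcripts in each of the 30 heifers by stage, 1 point per heifer, with a bar at the stage median, triangles for the 3 heifers with 2-digit animal numbers and 0 drawn at 0.05. Against the CIDR pool, ENSBTAT00000012423 and ENSBTAT00000054365 are raised in all 8 oestrus heifers apart from the overlap with CIDR+12h replicate 5. Some later heifers reach the oestrus levels. ENSBTAT00000012423 runs from 22.1 to 76.4 CPM at Oestrus+48h and from 30.0 to 89.1 CPM at Luteal. ENSBTAT00000054365 runs from 1.82 to 8.30 CPM and from 2.29 to 13.2 CPM there. ENSBTAT00000008373 is high in all CIDR+12h heifers and in 2 of 6 CIDR+24h heifers.

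The 16 transcripts called higher had their highest stage mean at Oestrus in 12 cases and at Oestrus+12h in 4, so none peaked outside the pool that chose them. Their median level was 20.5, 12.1, 16.7 and 23.1 CPM in Oestrus replicates 1 to 4 and 19.7, 15.7, 14.2 and 15.4 CPM in Oestrus+12h replicates 1 to 4. It lay between 5.68 and 13.8 CPM at CIDR+12h and between 6.80 and 9.9996 CPM at CIDR+24h, and these ranges overlapped. CIDR+12h replicate 5, at 13.8 CPM, was again the highest CIDR heifer. The median correlation of their log2 CPM among 120 pairs was 0.76, and 5 pairs were over 0.95. These correlations include the pool difference that the 16 were chosen for, and likeness within pools was not measured. The 16 are not counted as independent. These levels describe a set chosen in the same heifers.

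The 7 transcripts called lower were high at CIDR+12h and uneven at CIDR+24h. Their median level ran from 10.8 to 46.2 CPM at CIDR+12h, and in all 7 every CIDR+12h heifer lay above every oestrus heifer, as in 97 (0.582%) of all transcripts tested. The 7 were chosen in these same heifers, so nothing is read from that count. The median level of the 7 was 3.12, 1.00, 1.62, 49.97, 0.641 and 1.13 CPM in CIDR+24h replicates 1 to 6. In this median CIDR+24h replicate 4 was thus as high as the highest CIDR+12h heifer. In each of the 7 transcripts at least 1 of the other 5 CIDR+24h heifers also lay above every oestrus heifer, but all 5 did in only 1 transcript. Shares over all transcripts tested were not counted for these, and the 7 were chosen as lower in these heifers. Nothing is read from either count. In the oestrus heifers the median level was between 0.217 and 0.782 CPM. The highest heifer was CIDR+24h replicate 4 for 4 of the transcripts and CIDR+12h replicate 4 for the other 3. The median correlation of log2 CPM among the 21 pairs was 0.85, which includes the difference between the pools.

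**Figure D3:**
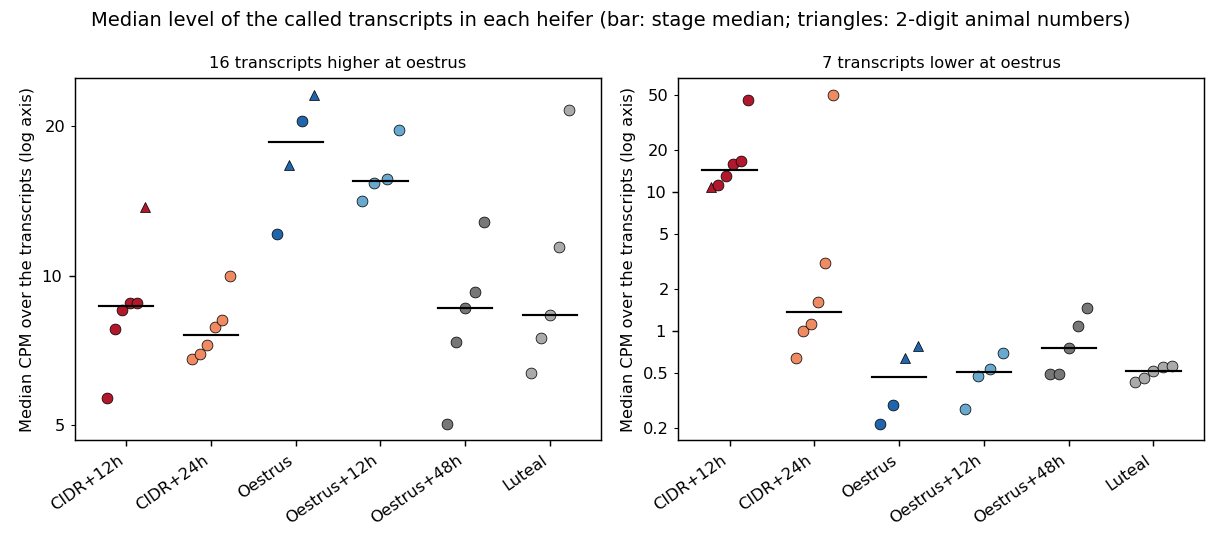
Median CPM, on a log axis, over the 16 transcripts called higher (left) and the 7 called lower (right) in each heifer by stage, with a bar at the stage median and triangles for 2-digit animal numbers. On the left the oestrus heifers lie at 12.1 to 23.1 CPM, and on the right the CIDR+12h heifers and CIDR+24h replicate 4 lie above 10 CPM.

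The later stages, which the comparison did not use, showed where these transcripts stood afterwards. By Oestrus+48h the median level of the 16 higher transcripts was 8.63 ± 2.86 CPM (SD, n = 5), beside 8.37 ± 2.03 CPM in the CIDR pool (SD, n = 12) and 17.2 ± 3.64 CPM in the oestrus pool (SD, n = 8). On the log2 scale the Oestrus+48h mean was nearer to the oestrus pool than to the CIDR pool for 0 of the 16. The count was 293 of the 1860 transcripts higher at an unadjusted p under 0.05, and 3289 of the 8098 higher among all tested. The Luteal mean was nearer to the oestrus pool for 5 of the 16, beside 606 of the 1860 and 3569 of the 8098. In mean log2 CPM the median pool difference was 0.99 for the 16, 0.63 for the 1860 and 0.29 for the 8098. In size of difference the 1860 were thus closer to the 16 than the 8098 were. The Luteal heifers spread from 6.38 to 21.5 CPM, with Luteal replicate 3 as high as the oestrus heifers. The 7 lower transcripts remained low, at a median of 0.86 ± 0.418 CPM at Oestrus+48h and 0.505 ± 0.0589 CPM at Luteal (SD, n = 5 each), against 0.49 ± 0.211 CPM in the oestrus pool (SD, n = 8). Their Luteal mean was nearer to the oestrus pool for 7 of 7 and their Oestrus+48h mean for 6 of 7. Of the 1553 transcripts lower at an unadjusted p under 0.05 the counts were 690 and 990. Of the 8573 that were lower among all tested they were 3762 and 4191. No test was made of these later levels.

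Oestrus and CIDR stages were also compared in separate animals by splitting the 20 heifers by stage label into comparisons with no heifer in common. Stages and animals changed together between these comparisons, so likeness or unlikeness between them cannot be assigned to either. The heifers with 2-digit animal numbers, 2 at Oestrus and 1 at CIDR+12h, all fell in Oestrus against CIDR+12h. Onset of oestrus against CIDR+12h called 10 transcripts (0.06%), all lower at oestrus, of which 4 were among the 7, and 1871 (11.2%) had an unadjusted p under 0.05. The 7 were chosen with these heifers included, so the 4 in common are no separate evidence. In the other heifers, Oestrus+12h against CIDR+24h, edgeR called 0 (0%), and 2759 (16.5%) reached an unadjusted p under 0.05. DESeq2, run on every transcript with a count and thus on a wider set, called 592. Of the 861 transcripts higher at an unadjusted p under 0.05 in the first comparison, 78.4% were also higher in the second, where 49% of all transcripts were higher. Of the 1010 lower in the first, 54.9% were also lower in the second, where 51% of all were lower. Read the other way, 76.4% of the 1370 higher and 78% of the 1389 lower in the second had that direction in the first, where 48.8% and 51.2% of all transcripts did. A set of 257 transcripts had an unadjusted p under 0.05 in the same direction in both, 195 higher and 62 lower, which is 13.7% of the first list and 9.31% of the second. The differences correlated across all transcripts at r = 0.25 (Spearman's rho = 0.28), and transcripts are not independent replicates.

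Pairing the stages the other way gave closer likeness between separate heifers, with stages and animals again changing together. Oestrus against CIDR+24h then held 2 heifers with 2-digit numbers and Oestrus+12h against CIDR+12h held 1. Onset of oestrus against CIDR+24h called 0 transcripts with edgeR, with 2799 (16.8%) at an unadjusted p under 0.05, and 460 with DESeq2 on its wider set. Oestrus+12h against CIDR+12h called 5 (0.03%), all lower, of which 4 were among the 7, with 845 (5.07%) at an unadjusted p under 0.05. Here too the 7 had been chosen with these heifers included, so that overlap is no separate evidence. Of the 1478 transcripts higher in the first, 88.8% were higher in the second, and of the 1321 lower, 85.3% were lower, where 45.9% and 54.1% of all transcripts were higher and lower. Read the other way, 83.7% of the 381 higher and 94.4% of the 464 lower in the second had that direction in the first, beside 44% and 56% of all transcripts. In both at an unadjusted p under 0.05 and in the same direction were 249 transcripts, 131 higher and 118 lower, which is 8.9% of the first list and 29.5% of the second. Across all transcripts r was 0.56 and rho 0.54.

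The lists at an unadjusted p under 0.05 in these comparisons changed in length with single heifers. For Oestrus against CIDR+12h the 1871 became 860 without Oestrus replicate 4, 1229 without Oestrus replicate 3, 3457 without Oestrus replicate 2 and 2899 without CIDR+12h replicate 5. For Oestrus against CIDR+24h the 2799 became 1211 without Oestrus replicate 4, and 905 without both Oestrus replicates 3 and 4. For Oestrus+12h against CIDR+24h the 2759 became 1528 without Oestrus+12h replicate 4. For Oestrus+12h against CIDR+12h the 845 became 548 without Oestrus+12h replicate 1 and 554 without CIDR+12h replicate 4. Omitting CIDR+12h replicate 5 raised it to 1744. The shares with the same direction were not recomputed on these shorter or longer lists.

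**Figure D4:**
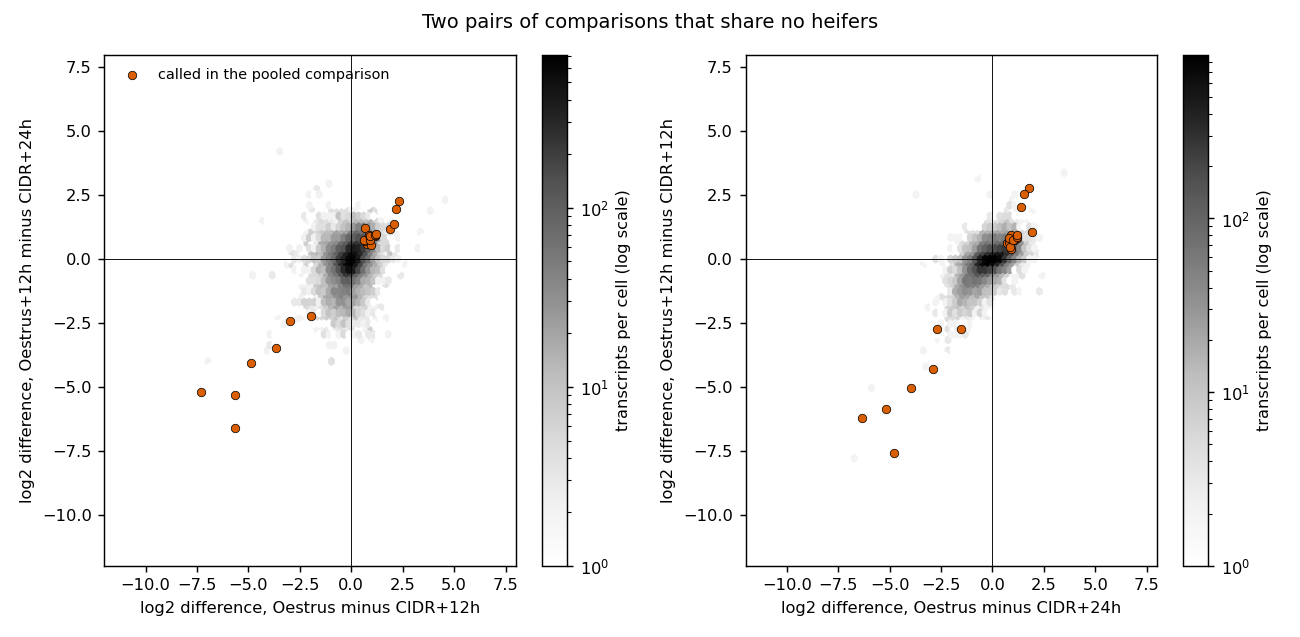
Each panel sets the log2 differences of all 16671 transcripts in 1 comparison of an oestrus stage with a CIDR stage (x axis) against those in the comparison of the other 2 stages (y axis), with grey shading for the number of transcripts and orange points for the 23 called in the pooled comparison. The orange points lie in the upper right or lower left quadrant because all 4 stages chose them, while the grey cloud follows the diagonal more closely on the right (r = 0.56) than on the left (r = 0.25).

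The 4 named transcripts were described in all 4 comparisons, in the order Oestrus against CIDR+12h, Oestrus+12h against CIDR+24h, Oestrus against CIDR+24h and Oestrus+12h against CIDR+12h. They were chosen by their p in the pooled fit of these same heifers, so their direction and size here are no separate evidence. For ENSBTAT00000012423 the log2 differences were 1.02 ± 0.247, 0.89 ± 0.221, 1.07 ± 0.224 and 0.80 ± 0.232 (SE), with edgeR adjusted p of 0.22, 0.235, 0.254 and 0.578. ENSBTAT00000054365 gave 1.16 ± 0.305, 0.93 ± 0.272, 1.19 ± 0.28 and 0.85 ± 0.288 (SE, edgeR adjusted p of 0.273, 0.235, 0.254 and 0.833). Neither was called in any of the 4, and both had their smallest difference for Oestrus+12h against CIDR+12h. ENSBTAT00000008373 gave -5.64 ± 0.74, -5.34 ± 1.98, -5.17 ± 1.94 and -5.86 ± 0.748 (SE, edgeR adjusted p of 0.0468, 0.255, 0.268 and 0.0302). It was called in both comparisons with CIDR+12h and in neither with CIDR+24h, the stage with high and low heifers, where its SE was larger. ENSBTAT00000026400 varied more in size, at -1.96 ± 0.517, -2.22 ± 0.563, -1.51 ± 0.638 and -2.73 ± 0.414 (SE, edgeR adjusted p of 0.277, 0.235, 0.283 and 0.0507), and was not called in any.

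Whether the stages within a pool differed was tested with 1 mean per stage. edgeR called 0 transcripts for CIDR+24h against CIDR+12h, with 1415 (8.49%) at an unadjusted p under 0.05, and 0 for Oestrus+12h against Oestrus, with 550 (3.3%). Tested jointly, the stages within both pools gave 0 calls, with 911 (5.46%). None of the 23 called transcripts had an unadjusted p under 0.05 in any of these tests. The 23 were chosen by a fit with 1 mean per pool, which favours little spread within pools, so this was partly built in. In mean log2 CPM the 7 lower had a median CIDR+24h minus CIDR+12h difference of -2.71. The tests thus do not show that the stages within a pool were alike. For ENSBTAT00000008373 the CIDR+24h minus CIDR+12h difference was -0.48 on the log2 scale (edgeR adjusted p = 0.872), although 4 of the 6 CIDR+24h heifers lay below every CIDR+12h heifer. The difference between the first 2 disjoint comparisons was also tested, and edgeR called 0 transcripts, with 1260 (7.56%) at an unadjusted p under 0.05. The same test for the second pair gave 0, with 500 (3%).

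At an unadjusted p under 0.05 stood 3413 transcripts (20.5%), where 834 would be expected by chance, 1860 (11.2%) higher and 1553 (9.32%) lower at oestrus. Transcripts are not independent within a heifer, so the count could lie far from 834 without a pool difference. No excess is read from it. With size factors of the kind DESeq2 uses the majority flipped, to 1681 higher and 1829 lower. The balance differed between abundance classes, a split that was not repeated under other scalings. The classes went by the mean over the same 20 heifers, so a transcript's difference could itself move it between classes. Directions of all tested transcripts per class were not counted. Of those with a mean of 1 to 10 CPM, 59.8% were higher at oestrus (643 against 433 lower), while at 100 CPM and over 36.3% were higher (111 against 195). Under 1 CPM the share was 52.6% (30 against 27), and at 10 to 100 CPM 54.5% (1076 against 898). Size was also uneven: a difference over 4-fold was reached by 19 of the 1860 higher and by 117 of the 1553 lower transcripts. Of these 117, the highest heifer was CIDR+24h replicate 4 for 55, CIDR+12h replicate 4 for 34 and CIDR+24h replicate 2 for 16. Of the 19, it was Oestrus replicate 4 for 12.

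Among the transcripts of 100 CPM and over, 6 were lower at oestrus by over 4-fold at an unadjusted p under 0.05, a set picked after the values were seen. Their mean levels ran from 183 to 15119 CPM and their log2 differences from -2.18 to -2.07, and none was called (edgeR adjusted p between 0.111 and 0.174). Together they took 3.76%, 1.43%, 1.10% and 0.552% of the counts in Oestrus replicates 1 to 4 and 0.837%, 1.33%, 0.724% and 0.921% in Oestrus+12h replicates 1 to 4. In the CIDR pool the share ran from 0.358% to 13.2% with a median of 3.70%, and at Luteal from 0.253% to 10.2%. The CIDR heifers thus spread widely, from below the oestrus heifers to far above them. The 6 moved as a unit, with a median correlation of log2 CPM of 0.98 among their pairs over both pools, so they are not 6 separate observations.

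Counts of transcripts without any overlap between pools differed by CIDR stage. Over the full pools, 4 transcripts (0.024%) did not overlap: 3 (0.018%) had every oestrus heifer above every CIDR heifer and 1 (0.006%) had every oestrus heifer below. Against CIDR+12h alone, 13 (0.078%) lay wholly above and 97 (0.582%) wholly below. Against CIDR+24h alone, with the same numbers of heifers, 252 (1.51%) lay wholly above and 33 (0.198%) wholly below. Whether the stages differ in this was not tested. Leaving out CIDR+12h replicate 5 brought the full-pool counts to 121 (0.726%) above and 3 (0.018%) below, and 8 of the 16 called higher were then free of overlap against 1 with it.

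CIDR+12h replicate 5 carries an animal number of 2 digits before a hyphen, as do Oestrus replicates 3 and 4, while all other heifers have 1 digit there. These 3 numbers also end in the same digits after the hyphen, an ending that no other heifer of the series has. The labels do not say what the form or the ending stands for, so whether the 3 share a herd or batch is not known. Among the 17 heifers with 1 digit, the median level of the 16 higher transcripts ran from 12.1 to 20.5 CPM at oestrus and from 5.68 to 9.9996 CPM in the CIDR pool, with no overlap. Among the 3 with 2 digits it was 16.7 and 23.1 CPM in the oestrus heifers and 13.8 CPM in the CIDR heifer. The second comparison has 1 CIDR heifer, and the 16 were chosen as higher in these heifers, so their direction within each kind of number is no separate evidence. For ENSBTAT00000012423 the means were 78.2 against 39.7 CPM with 1 digit, and with 2 digits a mean of 97.3 CPM over both oestrus heifers stood beside 68.1 CPM in the single CIDR heifer. Without the 3 heifers 138 transcripts (0.828%) lay wholly above and 6 (0.036%) wholly below, and edgeR called 222 transcripts, 209 higher and 13 lower, including 20 of the 23. With the form of the number as a covariate it called 4, all higher and all among the 16.

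The number of calls rested on single heifers. Leaving out CIDR+12h replicate 5 gave 1373 calls, 1019 higher and 354 lower, with all 23 among them. The omission of CIDR+24h replicate 1 gave 54 calls, that of replicate 6 gave 53, and that of replicate 3 gave 22. Leaving out any of the other 16 heifers gave 0 calls with edgeR, with smallest adjusted p from 0.0509 (CIDR+24h replicate 2) to 0.124 (Oestrus replicate 4) and between 2367 and 3795 transcripts at an unadjusted p under 0.05. All 23 kept their direction in each of the 20 omissions, and their highest adjusted p in any was 0.139. Each omission kept all but 1 of the heifers that chose the 23, so their direction there is no separate evidence. The log2 difference of ENSBTAT00000012423 stayed between 0.90 and 1.06 and that of ENSBTAT00000008373 between -5.73 and -5.19. A fit with 1 mean for each of the 6 stages over all 30 heifers called 40, of which 5 were higher and 35 lower at oestrus, with 1 of the 16 and 7 of the 7 among them.

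The heifers' profiles separated by pool along the second principal component and not the first. Component 1 took up 33.6% of the log2 CPM variance, and the pools accounted for 1.73% of the heifers' positions on it (exact permutation p = 0.574, two-sided). Component 2 took up 21.5%, and the pools accounted for 36% of the positions (exact permutation p = 0.00503, two-sided, adjusted p = 0.0151 over 3 values). The positions still overlapped, since CIDR+12h replicate 5 lay at 48.3, above 5 of the oestrus heifers, and Oestrus replicate 2 at -13.3. The lowest were CIDR+24h replicate 4 at -93.4 and CIDR+12h replicate 4 at -73.5. Of the distances between all heifers the pools held 10.1%, where 5.26% is expected by chance (exact permutation p = 0.0553, adjusted p = 0.083). The share of counts in the 10 most abundant transcripts differed in the same heifers, at 23.6% and 18.3% in those 2 lowest and 6.87% in Oestrus replicate 4, the highest on component 2 at 89.9. Its part in the component was not tested.

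**Figure D5:**
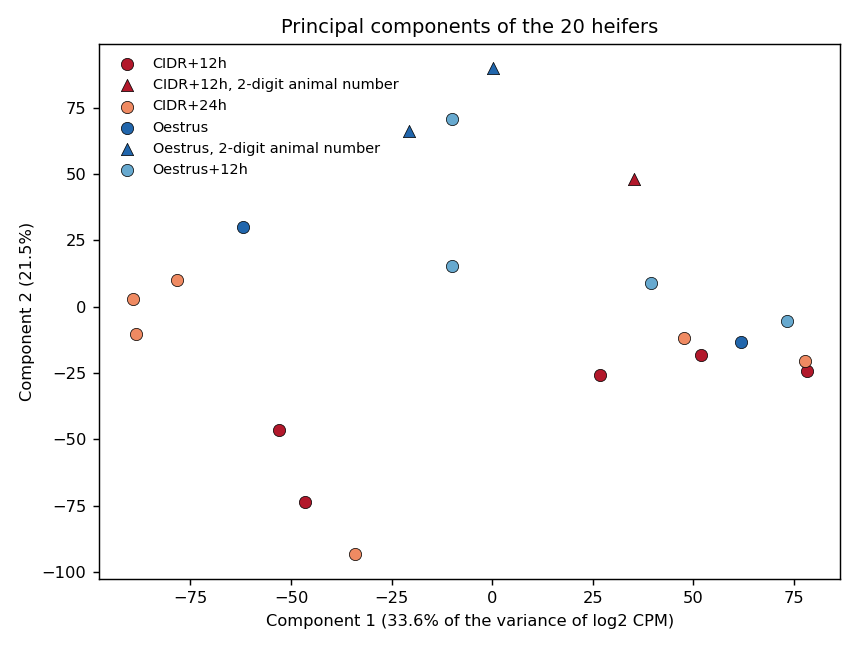
Positions of the 20 heifers on the first 2 principal components of log2 CPM, with colour for the stage and triangles for 2-digit animal numbers. Oestrus heifers lie mostly in the upper part, from -13.3 to 89.9 on component 2, and CIDR heifers mostly in the lower part, from -93.4 to 48.3.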

How the data were processed

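The authors deposited raw counts per Ensembl bovine transcript, 1 table per heifer, as whole numbers. Single-read Illumina libraries were sequenced, per the labels' protocols, and CASAVA version 1.0 appears in the submitters' processing notes. Not given in the sources used here are the aligner, counter, build, annotation and use of strand, so isoforms, near-identical copies and overlapping transcripts could share reads. Of the tested IDs, 46 had the counts of another ID in all 20 heifers.

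Groups followed the stage labels, and replicates (separate heifers) were numbered in accession order. edgeR 4.0.16 (R 4.3.3) fitted the 16671 transcripts kept by filterByExpr (minimum count 10, minimum total 15, by stage), which hold 99.9% of the counts, with TMM factors, robust quasi-likelihood and 1 mean per pool. Benjamini-Hochberg adjustment ran over all of them. The biological coefficient of variation was 0.483. The later stages were put on the same TMM scale. log2 CPM used a prior count of 2. SEs came from the fold change and F. Whole-library values were tested over all 125970 splits into 8 and 12.

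Named were the 2 transcripts higher and 2 lower with the smallest p and a mean of at least 5 CPM, leaving out a second that correlated with the first at over 0.95. The comparison, tests and rule were chosen with earlier results of these data known. Gene lists and cell type markers could not be applied without names. On simulated counts for this comparison over 16671 transcripts, of which 200 were changed, 85% of 4-fold and 43% of 2-fold changes were recovered. Of 137 calls there, 9 were false. Each transcript was drawn separately, without variation that transcripts share within a heifer, so recovery in the real data is not known. DESeq2 1.42.0, limma 3.58.1 voom and sva 3.50.0 were among the alternatives. DESeq2 was run on every transcript with a count, 22325 in the pooled comparison, so its calls differ from edgeR's in the set tested as well as the tool.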

Additional observations from a re-analysis of the deposited data

Results flagged for a closer look

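Of 48 sets of values within a stage that were examined, 7 held a heifer far from its stage. The rule used would flag about 1 in 20 of separate sets of normally distributed values. These values were not log transformed and some sets share transcripts, so that rate need not hold and no excess is read from the 7. For ENSBTAT00000008373, CIDR+12h replicate 4 stood at 46.2 CPM while its stage otherwise ran from 8.62 to 16.8 CPM. The same heifer stood at 52.6 CPM for ENSBTAT00000026400 (rest of the stage 14.9 to 26.1 CPM) and at 46.2 CPM for the median of the 7 transcripts lower at oestrus (rest 10.8 to 16.8 CPM). CIDR+24h replicate 4 stood at 49.97 CPM for that median (rest 0.641 to 3.12 CPM) and at 52.4 CPM for ENSBTAT00000026400 (rest 9.13 to 12.5 CPM). Both named transcripts belong to the 7, so these 5 values are not separate. Luteal replicate 5 stood at 0.556 CPM for ENSBTAT00000008373, from 4 counts, with the rest of its stage between 0 and 0.143 CPM. The library of CIDR+12h replicate 6 held 19628122 counts, and the rest of its stage ran from 8819190 to 11075868.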

How the results depend on the processing

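The covariate fit, the thinned libraries and the alternatives for counts at an unadjusted p were chosen after seeing the data. The 23 calls became 36 with upper-quartile factors, 20 with size factors of the kind DESeq2 uses, 994 with DESeq2 (488 higher, 506 lower), 1753 with voom quality weights, 168 with voom without weights (164 higher, 4 lower), 446 with 1 surrogate variable, 222 without heifers with 2-digit numbers, 40 with 1 mean per stage over 30 heifers and 4 with the covariate. They were 0 without a count filter, with at least 10 CPM in at least 4 heifers, with 1 mean per stage over 20 heifers and with libraries thinned to the smallest total, where the smallest adjusted p was 0.0578, 0.0581, 0.0687 and 0.0598 and 4014, 2617, 3471 and 3313 transcripts had an unadjusted p under 0.05. The cause was not tested. All of the 23 that were tested kept their direction in each of these fits, which reused heifers that chose them, so this is no separate evidence. Of the 7 lower, voom called 3 with weights and 2 without. Omitting single heifers moved the 23 between 0 and 1373, and the count of 3413 between 2367 and 4390.

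For Oestrus against CIDR+12h the 10 calls became 329 with DESeq2 and 0 without heifers with 2-digit numbers, and 0 to 30 over omissions. For Oestrus+12h against CIDR+12h the 5 calls became 15 with DESeq2's kind of size factors, 123 with DESeq2 and 17 without heifers with 2-digit numbers, and 0 to 36 over omissions. The 0 calls became 592 (Oestrus+12h against CIDR+24h) and 460 (Oestrus against CIDR+24h) with DESeq2, and stayed at 0 in omissions. Over omissions the pools held 8.41% to 12.5% of the distances (adjusted p from 0.0438 to 0.197), and 30.3% to 47.2% of component 2 (adjusted p from 0.000516 to 0.0433). The difference in the 10 most abundant transcripts' share ran from -4.88 to -3.45 percentage points (adjusted p from 0.0387 to 0.186). No paired analysis was possible because the replicate numbers only follow accession order and the heifers are different animals.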
